A study of Mus musculus with 27 samples.

Results

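Nkx6-1, Mafa, Pdx1, Neurod1, Isl1, Insm1, Rfx6 and Myt1 are 8 transcription factors of the pancreatic islet, and their rows were taken by symbol from the 3 deposited count tables. All 8 were present in each table, among 55536 rows for embryonic pancreas, 26487 rows for islets and 39017 rows for motor neuron progenitors. The series asked what a domain of Nkx2.2 named SD does, in mice with a mutated domain and in cells made to express it, and it mapped where Nkx2.2 binds in MIN6, a beta-cell line from mouse.

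RNA was sequenced from whole pancreas at E15.5 (the embryonic day), with 3 libraries of control and 4 of Nkx2.2SDmut embryos, in which the mutation is carried in all cells. Islets at 8 weeks gave 2 libraries of controls and 3 of animals with the beta-cell-specific mutation (betaSDmut). Those at 4 weeks gave 2 libraries of controls and 2 of animals labelled as beta-cell knockouts (betaKO). The 4-week libraries refer to an earlier study for their preparation and carry the molecule label genomic DNA, while the values are counts per gene as for the 8-week islets. The driver of the beta-cell deletion, the sex and the strain are not given in the sources used here. The progenitors were differentiated from mouse embryonic stem cells to day 4 and carried a doxycycline-inducible, FLAG-tagged transgene. They comprised the uninduced iNkx2.2 line (pMN, 3 libraries), the same line after about 16 h of 1 µg/ml doxycycline (iNkx2.2, 3 libraries) and the induced iSDmut line (2 libraries). Doxycycline itself was thus given to both induced groups and not to pMN. The series lists no uninduced iSDmut library, so iSDmut against pMN differs in cell line as well as in induction. The labels do not say whether each library came from a separate animal or culture, so the p-values measure the spread between libraries, which may be partly technical.

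The 8 proteins act in sequence and together in endocrine cells. Neurod1, Insm1, Myt1 and Rfx6 belong to the program that follows Neurog3, the factor that commits pancreatic progenitors to an endocrine fate, while Pdx1 and Nkx6-1 are present earlier and are later kept in beta cells, where Mafa joins them as the cells mature. Isl1, a LIM-homeodomain factor, is present in all endocrine cell types of the islet. Nkx2.2 is itself one of these factors, is needed for beta cells to form, and keeps beta cells from taking up features of other islet cell types.

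Libraries of embryonic pancreas held 38447596 to 41840638 counts, those of islets 12398041 to 32385406 and those of progenitors 17757991 to 46840701. Levels below are normalised counts (CPM, counts per 1e+06 counts of the library, scaled by the TMM method across the libraries of a table), and changes are log2 fold changes with their standard errors. A gene is said to have risen or fallen where edgeR's quasi-likelihood test gave a Benjamini-Hochberg adjusted p under 0.05 over all genes tested. Nkx2-2 itself had 58.7 to 91.4 CPM in E15.5 controls and 54.9 to 91.2 CPM in mutants, and 88.6 and 103 CPM in 8-week controls against 80.8 to 104 CPM in betaSDmut islets. In 4-week islets it had 76.2 and 103 CPM in controls and 64.6 and 92.9 CPM in the libraries labelled betaKO. Gene counts sum all exons and the deleted part is not named in the labels, so this level does not check the betaKO label. Transcripts of skeletal muscle were abundant in E15.5 control 3 and SDmut 2 (Acta1 at 1038 and 1287 CPM, at most 4.98 CPM in the other 5), and values without both are given where they bear on a member. The labelled tissues held their markers: the summed level of 6 beta-cell markers was 166688 to 241608 CPM in the islets and 48.3 to 800.2 CPM in the embryonic pancreas, where a list of 23 acinar genes summed to 20887 to 62678 CPM. In the progenitors the beta-cell markers summed to at most 0.51 CPM. In such bulk tissue, fewer cells of a type and less RNA per cell cannot be told apart.

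In MIN6 cells the authors called 10749 Nkx2.2 binding events and kept 6473 final sites, and their table of bound genes joined 1 final site to each of 7 of the 8 genes, all but Neurod1. Of the 9971 genes in their islet table, 26.0% had a joined site. The joined sites lay at very different distances from the gene starts (GRCm38, GENCODE annotation). Myt1 had its site at chr2:181759260, 4.1 kb upstream of the start and outside annotated genes. The Pdx1 site at chr5:147264130 lay 5.8 kb upstream, within an intron of the antisense gene Plut. Rfx6 carried its site at chr10:51685509 in its own intron, 7.8 kb into the gene, and the Mafa site at chr15:75756382 lay 8.2 kb upstream, in an intron of Zc3h3. Isl1 was joined to chr13:116259640, 50049 bases downstream of its start and outside annotated genes. The most distant were the Insm1 site at chr2:146366383, 144.5 kb downstream in an intron of Ralgapa2, and the Nkx6-1 site at chr5:101432407, 232.6 kb downstream and outside annotated genes.

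The sequences around 6 of these sites are shown because they are the stretches bound by Nkx2.2 that the authors assigned to the genes described below. Each is the 100 bases of the GRCm38 plus strand around the site. Capitals mark AAGTG, the core of the motif known for NK2 homeodomain proteins, read on either strand (AAGTG or CACTT), and CATCTG, a 6-base E-box of the kind that Neurod1 and related helix-loop-helix factors bind, read on either strand (CATCTG or CAGATG). The E-box was added after the sequences had been seen. The windows are chr5:101432357-101432456 for Nkx6-1, chr15:75756332-75756431 for Mafa, chr5:147264080-147264179 for Pdx1, chr13:116259590-116259689 for Isl1, chr2:146366333-146366432 for Insm1 and chr2:181759210-181759309 for Myt1.
Nkx6-1: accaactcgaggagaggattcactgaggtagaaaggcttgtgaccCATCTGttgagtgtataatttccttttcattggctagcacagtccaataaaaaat
Mafa: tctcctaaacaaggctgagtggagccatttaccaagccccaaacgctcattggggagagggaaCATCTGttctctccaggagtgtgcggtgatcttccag
Pdx1: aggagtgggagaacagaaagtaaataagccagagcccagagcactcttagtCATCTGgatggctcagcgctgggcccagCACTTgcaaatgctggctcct
Isl1: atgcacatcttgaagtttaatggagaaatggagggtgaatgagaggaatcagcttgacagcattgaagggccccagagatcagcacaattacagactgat
Insm1: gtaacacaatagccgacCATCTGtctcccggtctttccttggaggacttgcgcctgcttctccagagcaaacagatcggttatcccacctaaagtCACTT
Myt1: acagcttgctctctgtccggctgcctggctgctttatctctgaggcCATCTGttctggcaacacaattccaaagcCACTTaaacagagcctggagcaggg
The E-box stood in 5 of the 6 windows, all but that of Isl1, and began 5 bases before the Nkx6-1 site, 4 before the Myt1 site, 1 base after the Pdx1 site, 13 after the Mafa site and 33 before the Insm1 site. The NK2 core stood in 3 of the 6, those of Pdx1, Insm1 and Myt1. The window of the Rfx6 site touches an untranslated region and is not printed, and it held neither motif within 100 or 300 bases, which makes 5 of the 7 joined sites with the E-box and 3 of the 7 with the NK2 core in 100 bases. A match of letters is a description and shows no binding by any factor.

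Over all 6473 final sites, 17.9% held CATCTG within 100 bases, against 7.46% of windows of the same length 1000 bp to the side. For AAGTG the shares were 22.5% and 21.5%, and for the longer TNAAGTG (which contains AAGTG) 7.72% and 5.56%. Within 300 bases the shares were 39.5% and 21.3% for CATCTG, 53.5% and 52.3% for AAGTG, and 20.1% and 16.2% for TNAAGTG. The 4276 binding events left out of the final sites held CATCTG about as often, in 17.5% within 100 bases and 37.9% within 300. They held AAGTG in 25.0% and 57.4%, and TNAAGTG in 8.75% and 23.1%. The raised share of CATCTG is thus not particular to the final sites. In steps of 20 bases, CATCTG had its centre in the 2 bins at the site in 3.71% and 3.86% of sites, and in bins 300 or more bases away in 1.5% to 2.07%. Its highest bin was at 20 to 40 bases, with 4.57%. For AAGTG the same 2 bins had 5.04% and 5.21%, within the range of the far bins (4.37% to 5.59%). Its highest bin, at 40 to 60 bases, had 6.07%, above that range.

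**Figure D1:**
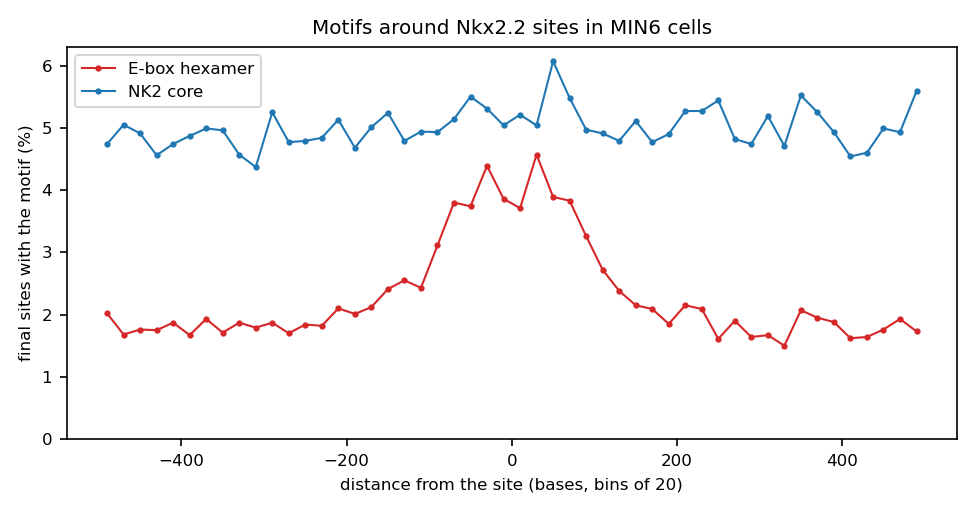
Share of the 6473 final Nkx2.2 sites in MIN6 cells (vertical axis, percent) that hold a motif in each bin of 20 bases, by distance from the site (horizontal axis, bases); the red line is the E-box hexamer CATCTG and the blue line the NK2 core AAGTG, both read on either strand. The red line is raised around the site, with 3.71% and 3.86% in the 2 bins next to it against at most 2.07% far away. The 2 bins of the blue line next to the site, 5.04% and 5.21%, lie within its far range, and its bin at 40 to 60 bases, 6.07%, lies above it.

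The joined sites differed in their ChIP-seq signal. The 2 replicates gave 356 and 270 reads in 500 bp at the Nkx6-1 site, 297 and 260 at the Rfx6 site and 263 and 171 at the Myt1 site. At the other end were the Pdx1 site with 80 and 57 reads and the Isl1 site with 82 and 71. By mean log2 CPM the Nkx6-1 site stood at the 96.6th percentile of final sites, the Rfx6 site at the 95.5th and the Myt1 site at the 92.6th, whereas the Pdx1 site was at the 39.2nd and the Isl1 site at the 49.4th. No input reads were set against these counts. The authors' join is not always the nearest site: for Nkx6-1, Insm1 and Myt1 a final site lay closer, at 67.8 kb upstream, 32.7 kb downstream and 3.8 kb downstream. Neurod1, which had no joined site, had 3 final sites within 100 kb, at 46.1, 53.4 and 57.3 kb downstream of its start in introns of Cerkl. In all, 6 of the 8 genes had a final site within 50 kb of the start, against 25.0% of 21951 protein-coding genes. That share counts every annotated gene, whether or not it is expressed in beta cells, so the 2 sets are not alike.

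In the embryonic pancreas, Mafa had the largest difference of the 8 genes, and no member passed the test. Mafa, the insulin gene activator of maturing beta cells, had 17.3, 9.38 and 11.0 CPM in the 3 controls and 1.32, 6.44, 2.01 and 1.79 CPM in the 4 mutants. All mutants lay below all controls, and mutant 2, one of the libraries with muscle transcripts, lay nearest to them. The mean in mutants was 23.0% of that in controls, a log2 fold change of -2.12 (SE 0.567), but edgeR's adjusted p was 0.9998 (unadjusted p 0.00654). Without both libraries with muscle transcripts the log2 fold change was -2.97 (SE 0.355; adjusted p by edgeR 0.25). The adjusted p ranged from 0.0711 (DESeq2) to 1 over the alternatives. In the authors' deposited table the same gene has a log2 fold change of -0.88 with an adjusted p of 0.0572. That table lists the other 7 members between -0.00377 (Myt1) and 0.000538 (Isl1), while the fit used here gave Myt1 -0.64. Its fold changes lie nearer 0 by no common factor, so their size cannot be set against -2.12.

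Myt1, a zinc-finger factor of endocrine progenitors, was next, with 26.6, 23.1 and 14.5 CPM in controls and 10.5, 12.9, 15.3 and 16.4 CPM in mutants. The groups overlapped, since control 3 lay among the mutants, and the log2 fold change was -0.64 (SE 0.239, unadjusted p 0.0300). Neurod1 had 28.7, 16.3 and 14.6 CPM in controls and 13.1, 13.1, 17.0 and 14.5 CPM in mutants (log2 fold change -0.46, SE 0.244). Here control 1 stood above the other 6 libraries, which spanned 13.1 to 17.0 CPM. Rfx6, a winged-helix factor of endocrine precursors, showed the same layout at 10.9 to 19.4 CPM in controls and 9.84 to 15.4 CPM in mutants (log2 fold change -0.32, SE 0.249). Insm1, a zinc-finger repressor needed for endocrine differentiation, had 31.1 to 50.3 CPM in controls and 25.6 to 39.5 CPM in mutants (log2 fold change -0.31, SE 0.220).

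The 2 factors that are already present in early progenitors had the highest levels and small differences. Nkx6-1 had 169, 122 and 116 CPM in controls and 97.1, 92.6, 125 and 145 CPM in mutants (log2 fold change -0.24, SE 0.199), and Pdx1 had 81.1 to 114 CPM in controls and 63.0 to 124 CPM in mutants (log2 fold change -0.07, SE 0.254). Isl1 was the only member with a positive value. It had 47.1, 45.3 and 24.5 CPM in controls and 46.7, 43.9, 58.0 and 52.8 CPM in mutants, giving a log2 fold change of 0.37 (SE 0.229), and control 3 was the lowest library. Without control 3 the log2 fold change was 0.13.

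Over the 8 genes at E15.5, edgeR called 0, and 2 had an unadjusted p under 0.05 (Mafa and Myt1); DESeq2 also called 0. Over all 18723 genes tested edgeR called 0.00534%, and 2.54% had an unadjusted p under 0.05. The members' median log2 fold change was -0.31 against 0.01 over all genes, with 7 of 8 values below 0. These values lean on control 1: without it the median was -0.08 with 6 of 8 below 0, Nkx6-1 had -0.05, Neurod1 -0.10, Insm1 -0.10, Rfx6 -0.04 and Pdx1 0.08, while Mafa had -1.81 and Myt1 -0.45. Groups did not overlap for 1 of the 8, Mafa, and for 3.58% of all genes. Among a list of 40 other islet transcription factors, 0 were called (7 at an unadjusted p under 0.05), with a median of -0.10. For 24 beta-cell genes known as targets of the members, 0 were called (10 unadjusted) and the median was -0.66. The lowest of these was Ins2, insulin, with 154 to 443 CPM in controls and 8.33 to 14.6 CPM in mutants (log2 fold change -4.52, SE 0.403; adjusted p by edgeR 0.0608). The summed level of the 6 beta-cell markers was 279.2 to 800.2 CPM in controls and 48.3 to 104.9 CPM in mutants. Their part in the values of Mafa and Myt1 was not tested.

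**Figure D2:**
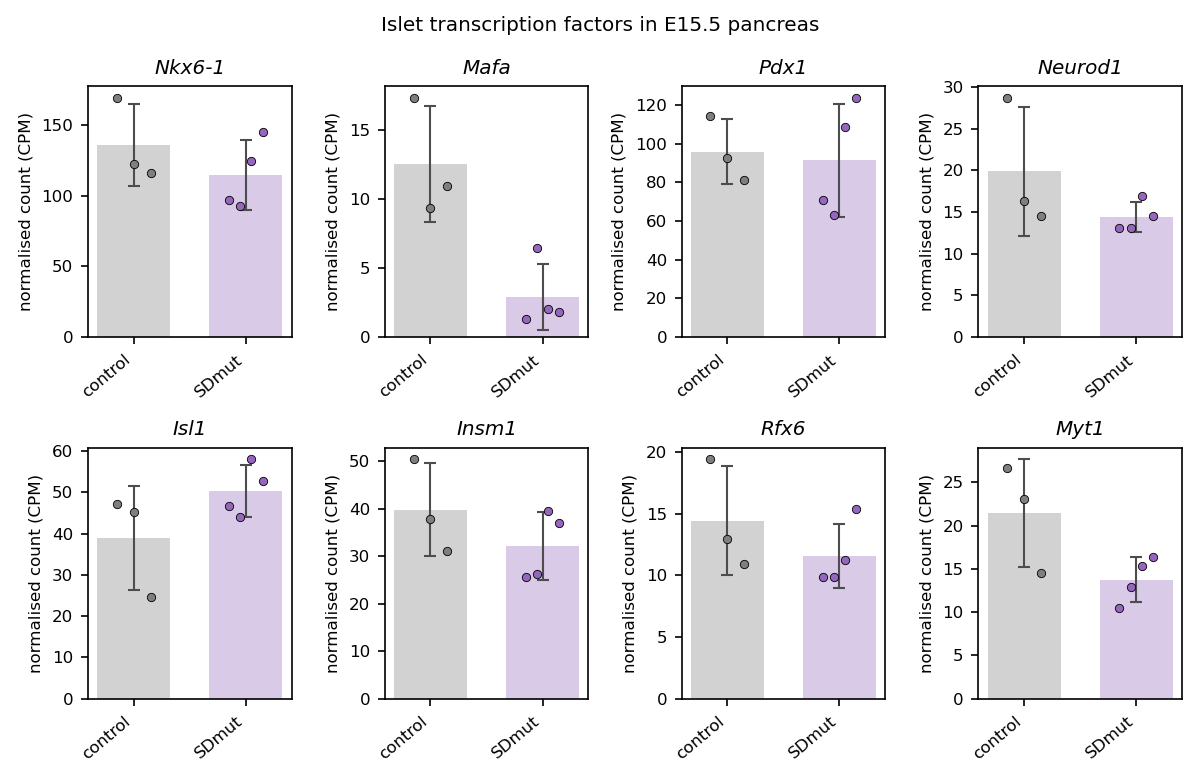
Normalised count (vertical axis, CPM) of each of the 8 factors in E15.5 pancreas, in 3 control and 4 SDmut libraries; points are libraries, bars means and error bars SD. Mafa is the one factor whose groups do not overlap, at 9.38 CPM or more in controls and at most 6.44 CPM in mutants, while Nkx6-1 and Pdx1 have the highest levels in both groups.

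Per length of transcript (CPM per kb of exon), Pdx1 and Nkx6-1 led in E15.5 controls with 44.4 ± 7.75 and 43.3 ± 9.26 (SD, n = 3), which did not differ beyond their spread. Insm1 followed at 12.8 ± 3.15, Isl1 at 9.84 ± 3.16 and Neurod1 at 7.28 ± 2.82, each within the spread of its neighbour. Mafa had 4.58 ± 1.54, Rfx6 3.60 ± 1.10 and Myt1 2.98 ± 0.866. In mutants Mafa was last of the 8 at 1.06 ± 0.871 (SD, n = 4), and Isl1 at 12.7 ± 1.59 stood before Insm1 at 10.3 ± 2.31, a pair that again overlapped.

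In 8-week islets, Nkx6-1 and Insm1 fell and Isl1 rose in animals with the beta-cell-specific SD mutation, and the other 5 factors did not pass the test. Isl1 had 106 and 105 CPM in the 2 controls and 227, 200 and 196 CPM in the 3 betaSDmut libraries. The groups were far apart, and the mean in mutants was 197.4% of that in controls. The log2 fold change was 0.98 (SE 0.0900; adjusted p by edgeR 0.00504; 6.88e-19 to 0.0961 over the alternatives). Nkx6-1, a homeodomain factor that keeps beta-cell identity, had 207 and 217 CPM in controls and 134, 110 and 97.2 CPM in betaSDmut islets. The mean fell to 53.6% of the control mean, a log2 fold change of -0.91 (SE 0.133; adjusted p by edgeR 0.0174). Insm1 had 200 and 212 CPM in controls and 155, 142 and 141 CPM in betaSDmut islets, with a log2 fold change of -0.50 (SE 0.0788; adjusted p by edgeR 0.0206).

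Mafa and Rfx6 also had separate groups but missed the threshold. Mafa had 121 and 123 CPM in controls and 80.6, 88.0 and 54.8 CPM in betaSDmut islets (log2 fold change -0.72, SE 0.192; adjusted p by edgeR 0.0820). Rfx6 had 116 and 128 CPM in controls and 149, 146 and 162 CPM in betaSDmut islets (log2 fold change 0.32, SE 0.0894; adjusted p by edgeR 0.0874). Both were called by DESeq2. Pdx1, which activates insulin transcription and is needed for the whole pancreas, had 94.5 and 103 CPM in controls and 133, 132 and 105 CPM in betaSDmut islets (log2 fold change 0.31, SE 0.117; adjusted p by edgeR 0.164), and mutant 3 lay next to the controls. Neurod1 and Myt1 were nearly level. Neurod1 had 181 and 175 CPM in controls and 182, 163 and 148 CPM in betaSDmut islets (log2 fold change -0.12, SE 0.0973), and Myt1 had 73.3 and 80.3 against 73.5, 88.2 and 76.7 CPM (log2 fold change 0.04, SE 0.0976).

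Thus 3 of 8 members were called at 8 weeks, 1 higher and 2 lower. Over all 15413 genes tested 7.94% were called, 4.07% higher and 3.87% lower. Groups did not overlap for 6 of the 8, against 45.0% of all genes. The members' median was -0.04, and over all genes it was 0.01. A fit without control 1 or without control 2 leaves a lone control, which is assumed to vary like the mutant libraries. Its calls cannot show whether the result depends on either control. Over all fits without 1 library, the log2 fold change was 0.91 to 1.02 for Isl1, -1.03 to -0.80 for Nkx6-1 and -0.55 to -0.46 for Insm1. The fit without betaSDmut 2 called Isl1 alone. The authors' deposited table for the same comparison calls the same 3 genes, Isl1 higher and Nkx6-1 and Insm1 lower, and their joint table of all islet libraries calls these and Rfx6, higher at 0.39.

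Lists of related genes were set beside the members. Of 34 other islet transcription factors tested, 4 were called, 2 higher and 2 lower. Mnx1, a homeodomain factor of beta cells (log2 fold change 0.67, SE 0.131), was among those that rose, while the zinc-finger factor St18 (-0.68, SE 0.0755) and the homeodomain factor Meis1 (-0.45, SE 0.0785) fell. The list's median was -0.01. Of 24 beta-cell genes, 8 were called, 2 higher and 6 lower, with a median of -0.33. The incretin receptors Gipr (-2.19, SE 0.178) and Glp1r (-1.20, SE 0.155) fell, as did the glucose transporter Slc2a2 (-0.89, SE 0.129), the zinc transporter of insulin granules Slc30a8 (-1.12, SE 0.137), pyruvate carboxylase Pcx (-1.28, SE 0.180) and the granule protein Chga (-1.13, SE 0.114). Chgb (0.66, SE 0.111) and Scg2 (1.28, SE 0.170), granule proteins of the same family, rose.

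Markers of beta cells and other cell types were measured in the same libraries. The 6 beta-cell markers summed to 236372 and 241608 CPM in 8-week controls and to 198947 to 219394 CPM in betaSDmut islets, lower in all mutants. Ins1 and Ins2 made up most of that sum, and the markers did not all move alike. Ins2 and Slc2a2 were lower in all betaSDmut islets, while Ins1 and Ucn3 overlapped with the controls. Iapp was higher, at 2920 and 3086 CPM in controls and 4047 to 5276 CPM in betaSDmut islets. The 5 delta-cell markers summed to 2088 and 3092 CPM in 8-week controls and to 4956 to 6526 CPM in betaSDmut islets, with Rbp4 at a log2 fold change of 3.68 (SE 0.122, called), while somatostatin, Sst, which defines delta cells, had 0.63 (SE 0.262; adjusted p by edgeR 0.203). The 10 alpha-cell markers summed to 33416 and 42109 CPM in controls and 24011 to 34002 CPM in mutants, which overlap. The 24 acinar genes had a median of -1.17 with 0 called, and summed to 10839 and 17800 CPM in controls and 1410 to 14471 CPM in betaSDmut islets, again with overlap. Of 7 immune genes tested 3 fell, Csf1r (-0.97), Emr1 (-1.13) and Itgam (-1.26), while 2 had values above 0, up to 2.04. The immune genes summed to 138.6 and 144.3 CPM in controls and 82.3 to 339 CPM in betaSDmut islets, with betaSDmut 3 above both controls. The 8 mesenchyme genes summed to 224.2 and 288.8 CPM in controls and 129.4 to 187.9 CPM in betaSDmut islets. Of these genes 7 had values below 0 (median -0.88, 7 of the 8 at an unadjusted p under 0.05 by edgeR), while Vim was called higher (0.84). Endothelial genes had values below 0 in 8 of 8 (median -0.13, 0 called), and 1 of 7 duct genes tested, Krt7, was called lower. With the acinar genes removed before the fit, the same 3 members were called, at 0.98 for Isl1, -0.90 for Nkx6-1 and -0.50 for Insm1. This removal leaves the members' counts as they were, so it cannot show the part of acinar content in their values. The part of beta-cell content and of the other cell types in the values was not tested.

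**Figure D3:**
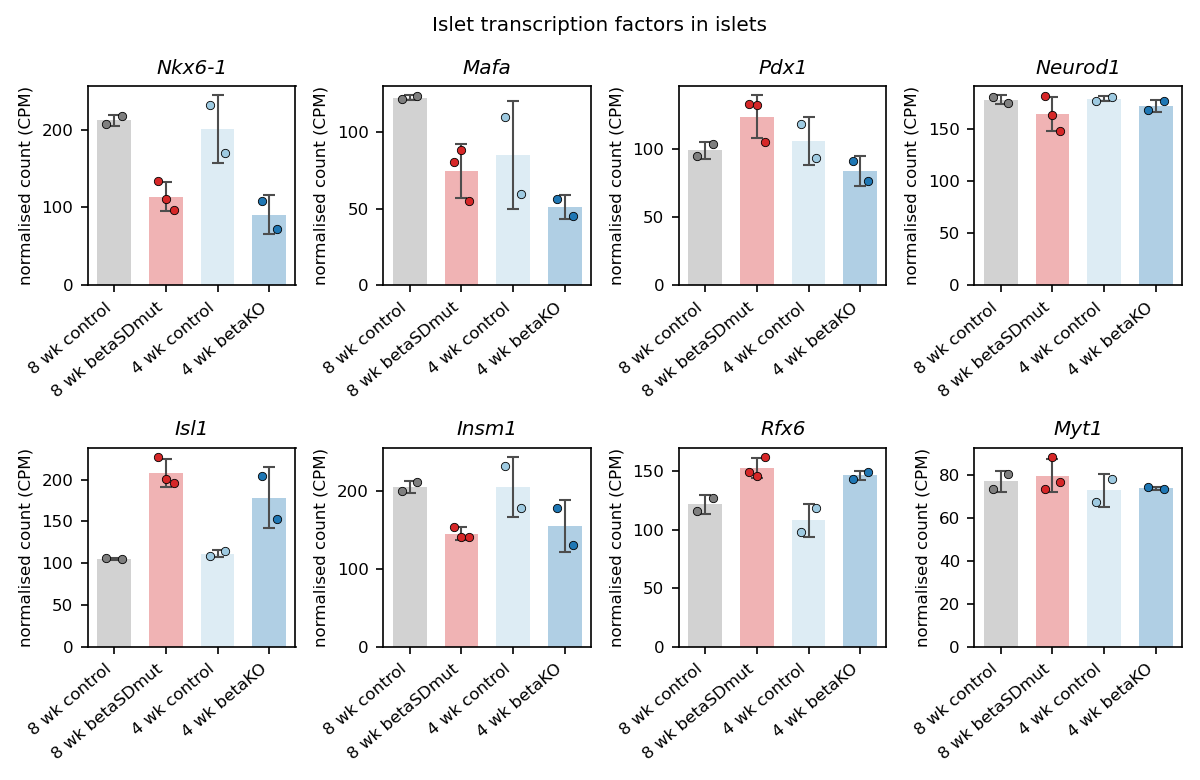
Normalised count (vertical axis, CPM) of each of the 8 factors in islets, with 8-week controls (n = 2), 8-week betaSDmut (n = 3), 4-week controls (n = 2) and 4-week libraries labelled betaKO (n = 2); points are libraries, bars means and error bars SD. Nkx6-1 is lower and Isl1 higher in both mutant groups than in the controls of the same age, and Neurod1 and Myt1 stay nearly level.

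In 4-week islets the 3 members called at 8 weeks, Nkx6-1, Isl1 and Insm1, had values of the same sign, but edgeR called 0 of the 8 members. Nkx6-1 had 231 and 170 CPM in controls and 109 and 72.8 CPM in the libraries labelled betaKO, with a log2 fold change of -1.14 (SE 0.267; adjusted p by edgeR 0.182, unadjusted 0.0122). Isl1 had 109 and 114 CPM in controls and 205 and 152 CPM in the libraries labelled betaKO (0.68, SE 0.152; adjusted p by edgeR 0.124). Rfx6 had 98.3 and 118 CPM in controls and 144 and 150 CPM in the libraries labelled betaKO (0.44, SE 0.110; adjusted p by edgeR 0.151). These were the 3 members with an unadjusted p under 0.05. The groups did not overlap for them, nor for Mafa, Pdx1 and Neurod1. DESeq2 called Nkx6-1, Isl1 and Rfx6, and edgeR fitted over all 9 islet libraries called Nkx6-1 and Isl1. The authors' deposited joint table likewise calls Nkx6-1 lower and Isl1 higher in this comparison.

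The other 5 had wider or smaller differences. Mafa had 110 and 59.8 CPM in controls and 56.3 and 45.2 CPM in the libraries labelled betaKO (-0.74 on the log2 scale, SE 0.343), and control 2 lay close to the betaKO values. Insm1 had 233 and 179 against 179 and 131 CPM (-0.41, SE 0.205), Pdx1 118 and 93.0 against 91.3 and 76.1 CPM (-0.34, SE 0.154). Neurod1 had 177 and 181 against 168 and 176 CPM, and Myt1 67.4 and 78.1 against 74.2 and 73.2 CPM, with log2 fold changes of -0.06 and 0.02.

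Over all 14942 genes tested at 4 weeks 1.56% were called. Groups did not overlap for 6 of the 8 members and for 46.8% of all genes. Of 35 other islet transcription factors 0 were called by edgeR (14 at an unadjusted p under 0.05), with a median of 0.39. Of 24 beta-cell genes 6 fell and none rose, with a median of -0.49: Ucn3, a peptide of mature beta cells (-1.41, SE 0.0961), Gipr (-1.30, SE 0.127), Pcx (-1.01, SE 0.0802), Glp1r (-0.95, SE 0.0807), and the secretion-linked genes Sytl4 (-0.76, SE 0.0973) and Ppp1r1a (-0.76, SE 0.0877). Markers of other endocrine cells were higher in the same libraries. The 10 alpha-cell markers summed to 26932 and 31220 CPM in controls and to 53495 and 65346 CPM in the libraries labelled betaKO, with Gcg, glucagon, at a log2 fold change of 1.06 (SE 0.158, called). The 24 acinar genes summed to 8214 and 14907 CPM and to 20792 and 56461 CPM, and the delta-cell markers to 1894 and 3443 CPM and to 5146 and 6441 CPM. The 2 PP-cell genes in the table summed to 3481 and 3559 CPM and to 8339 and 10855 CPM, with Ppy, pancreatic polypeptide, called (1.47, SE 0.142), and the collagens Col1a1 (1.36) and Col3a1 (1.00) of the mesenchyme list rose. Genes of endothelial cells had values below 0 in 8 of 8 (median -0.47, 0 called, 6 at an unadjusted p under 0.05), as had 7 of 7 immune genes (median -0.84, 0 called, 1 unadjusted). The 6 beta-cell markers summed to 210234 and 214815 CPM in controls and to 166688 and 178831 CPM in the libraries labelled betaKO. Most of that sum was again Ins1 and Ins2, which were lower in the libraries labelled betaKO, as were Ucn3 and Slc2a2. Iapp was higher there, at 2842 and 3335 CPM in controls and 4089 and 3682 CPM in the libraries labelled betaKO. The part of these cell types in the members' values was not tested. With the acinar genes removed before the fit, Nkx6-1 was at -1.14 and Isl1 at 0.68. That removal leaves the members' counts as they were, so it cannot show the part of acinar content.

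Whether the 2 islet effects differ was tested in a model of all 9 islet libraries. Of 15995 genes, 1.21% differed, and edgeR and DESeq2 each called 0 of the 8 members. The difference (the 8-week effect minus the 4-week effect) was 0.65 for Pdx1 (SE 0.215; adjusted p by edgeR 0.227, unadjusted 0.0155), the only member with an unadjusted p under 0.05. For Nkx6-1 it was 0.24 (SE 0.308) and for Isl1 0.30 (SE 0.185). A missed threshold does not show that the 2 genotypes act alike, and age, genotype and the source of the libraries cannot be told apart.

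**Figure D4:**
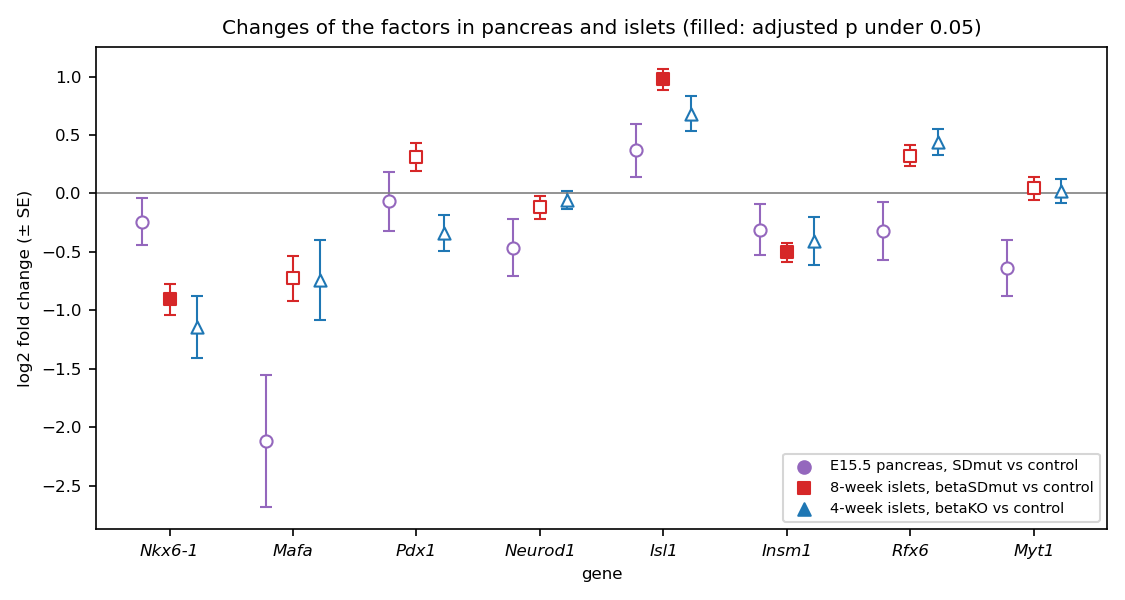
Log2 fold change with its standard error (vertical axis) for each of the 8 factors (horizontal axis) in E15.5 pancreas (circles, 4 SDmut against 3 control), 8-week islets (squares, 3 betaSDmut against 2 control) and 4-week islets (triangles, 2 libraries labelled betaKO against 2 control); filled symbols passed edgeR's adjusted p threshold. The filled symbols are Nkx6-1, Isl1 and Insm1 at 8 weeks, and the lowest point is Mafa at E15.5 with -2.12.

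Per length, by the authors' FPKM (fragments scaled to transcript length and library size), the order of the 8 genes differed between control and mutant islets. In 8-week controls Mafa led with 162.8 ± 3.79 FPKM (SD, n = 2), before Nkx6-1 at 152.0 ± 5.33, Pdx1 at 104.2 ± 7.79, Neurod1 at 96.7 ± 2.22, Insm1 at 88.0 ± 3.87, Isl1 at 55.5 ± 0.358, Rfx6 at 43.2 ± 3.19 and Myt1 at 18.2 ± 1.23. Only Pdx1 and Neurod1 were closer to each other than the larger of their SDs. In betaSDmut islets Pdx1 led with 129.8 ± 13.1 FPKM (SD, n = 3), and Isl1 came next at 111.2 ± 6.49, up from the sixth place, while Mafa had 100.8 ± 22.3, Neurod1 90.0 ± 7.19 and Nkx6-1 81.5 ± 11.0. These last 3 lay within the spread of their neighbours. The 4-week groups showed a similar shift on the FPKM scale: Nkx6-1 led in controls with 151.4 ± 35.4 (SD, n = 2) and Isl1 was sixth with 64.1 ± 0.159, and in the libraries labelled betaKO Isl1 and Neurod1 were highest at 92.3 ± 12.7 and 92.2 ± 9.06 with Nkx6-1 at 61.2 ± 9.72. Rfx6 and Myt1 were seventh and eighth in all 4 islet groups.

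Across all 9 islet libraries, Nkx6-1 varied most, from 72.8 to 231 CPM or 3.18-fold, then Mafa (2.73-fold) and Isl1 (2.174-fold). Neurod1 and Myt1 varied least, with 1.22-fold and 1.31-fold between their lowest and highest libraries. Among 11544 genes, those whose log2 CPM, centred on its mean, followed a called member most closely over the 9 libraries were found by the root mean square difference. For Nkx6-1 these were Grin1 (0.117), Spnb4 (0.187) and Cnnm1 (0.191), for Isl1 Rps6ka6 (0.0984), Ggct (0.13) and Ankrd6 (0.134), and for Insm1 Shb (0.0909), Robo2 (0.0977) and Kalrn (0.0981). The libraries share genotype and cell makeup, so this likeness is a description.

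In motor neuron progenitors, Insm1 rose and Neurod1 fell in cells with induced Nkx2.2. Nkx2-2 had 11.6, 5.40 and 10.7 CPM in pMN, 378, 343 and 343 CPM in iNkx2.2 and 248 and 245 CPM in iSDmut cells, higher in both induced lines, and reads of the transgene and of the gene itself were not separated. Insm1 had 38.6, 24.9 and 43.8 CPM in pMN and 223, 162 and 245 CPM in iNkx2.2 cells. All induced libraries lay well above all uninduced ones, with a log2 fold change of 2.55 (SE 0.230; adjusted p by edgeR 0.000362). Insm1 rose in iSDmut cells as well, to 143 and 107 CPM (log2 fold change 1.81, SE 0.242; adjusted p by edgeR 0.00630). Against iNkx2.2 the iSDmut level had a log2 fold change of -0.74 (SE 0.246), with edgeR's adjusted p at 0.252 without and 0.00553 with the replicate number as a block. Whether that number pairs the iSDmut libraries with the others is not settled.

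Neurod1, which drives neuronal as well as endocrine differentiation, had 27.1, 16.9 and 24.9 CPM in pMN and 12.1, 5.10 and 5.70 CPM in iNkx2.2 cells. Its groups did not overlap and the log2 fold change was -1.57 (SE 0.411; adjusted p by edgeR 0.0433). In iSDmut cells it had 25.8 and 9.73 CPM, so that 1 library lay among pMN and the other near iNkx2.2 (log2 fold change against pMN -0.38, SE 0.453). Neurod1 was not called in a fit without iNkx2.2 2, without iNkx2.2 3 or without any 1 of the pMN libraries (adjusted p by edgeR 0.0737 to 0.144), and its value within the libraries of lane 2 was -1.30 (edgeR adjusted p 0.126), against 2.62 (0.0124) for Insm1.

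The replicate numbers pair pMN and iNkx2.2 libraries. With the number as a block, 4 members were called in place of 2: Insm1 at 2.57, Neurod1 at -1.66, Mafa at 1.31 (SE 0.363; adjusted p by edgeR 0.0271) and Myt1 at 0.74 (SE 0.177; adjusted p by edgeR 0.0266). Myt1 had 44.1, 17.3 and 42.9 CPM in pMN and 71.8, 40.5 and 56.0 CPM in iNkx2.2 cells, higher within each of the 3 pairs though the groups overlap. Mafa was near the limit of detection, at 0.254 to 0.39 CPM in pMN and 0.528 to 1.08 CPM in iNkx2.2 cells. In a block fit of only these 2 groups, chosen after the data were seen, Mafa, Neurod1 and Insm1 were called.

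The other members were not called. Nkx6-1, which patterns the ventral spinal cord as well as the islet, had 226, 168 and 281 CPM in pMN and 247, 166 and 284 CPM in iNkx2.2 cells (log2 fold change 0.05, SE 0.224), and 210 and 164 CPM in iSDmut cells. Isl1, a motor neuron factor, had 67.1, 28.6 and 56.8 CPM in pMN, 56.6, 25.4 and 31.5 CPM in iNkx2.2 and 64.5 and 87.04 CPM in iSDmut cells. Its difference between iSDmut and iNkx2.2 was 1.00 on the log2 scale (SE 0.377; adjusted p by edgeR 0.320, unadjusted 0.0254), and both iSDmut libraries lay above the 3 iNkx2.2 libraries. Rfx6 stayed at or under 0.849 CPM, and Pdx1 at or under 0.0612 CPM, too low to be tested.

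Of the 7 members tested, 2 were called for iNkx2.2 against pMN in the main fit, which leaves the pairs out. In that fit 9.49% of 15653 genes were called (Insm1 among the 4.71% that rose and Neurod1 among the 4.78% that fell). The 4 members called with the pairs as a block are not to be set against that share. Groups did not overlap for 4 of the 8 members against 31.4% of genes. The calls that follow also come from the main fit. For iSDmut against pMN 1 was called, higher (3.54% of genes, 1.9% higher), with 3 members and 36.4% of genes not overlapping. For iSDmut against iNkx2.2 edgeR called 0 (3 at an unadjusted p under 0.05; DESeq2 0; 0.281% of genes). These 3 comparisons share libraries. Of 37 other islet transcription factors, 10 were called for iNkx2.2 against pMN, with a median of -0.02. Nkx2-2 itself (5.25), the endocrine determinant Neurog3 (2.37), St18 (1.36) and the thyroid hormone receptor Thra (0.64) rose. Those that fell included Pax6 (-5.54), Isl2 (-2.67), Mnx1 (-2.24), Onecut1 (-1.52) and Meis2 (-0.43). Pax6 was the single factor of that list called between the induced lines: it had 95.1 to 161 CPM in pMN, 2.19 to 2.75 CPM in iNkx2.2 and 25.1 and 9.77 CPM in iSDmut cells (log2 fold change of iSDmut against iNkx2.2 2.77, SE 0.384; adjusted p by edgeR 0.0304). Of 15 beta-cell genes tested, Chgb (2.42), Gipr (2.57) and Abcc8 (2.30) rose in iNkx2.2 cells, and 12 were not called. A list of 7 neural and Schwann cell genes summed to 172.3 to 327.5 CPM in pMN and 553.1 to 703.6 CPM in iNkx2.2 cells, and its part in the values was not tested.

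**Figure D5:**
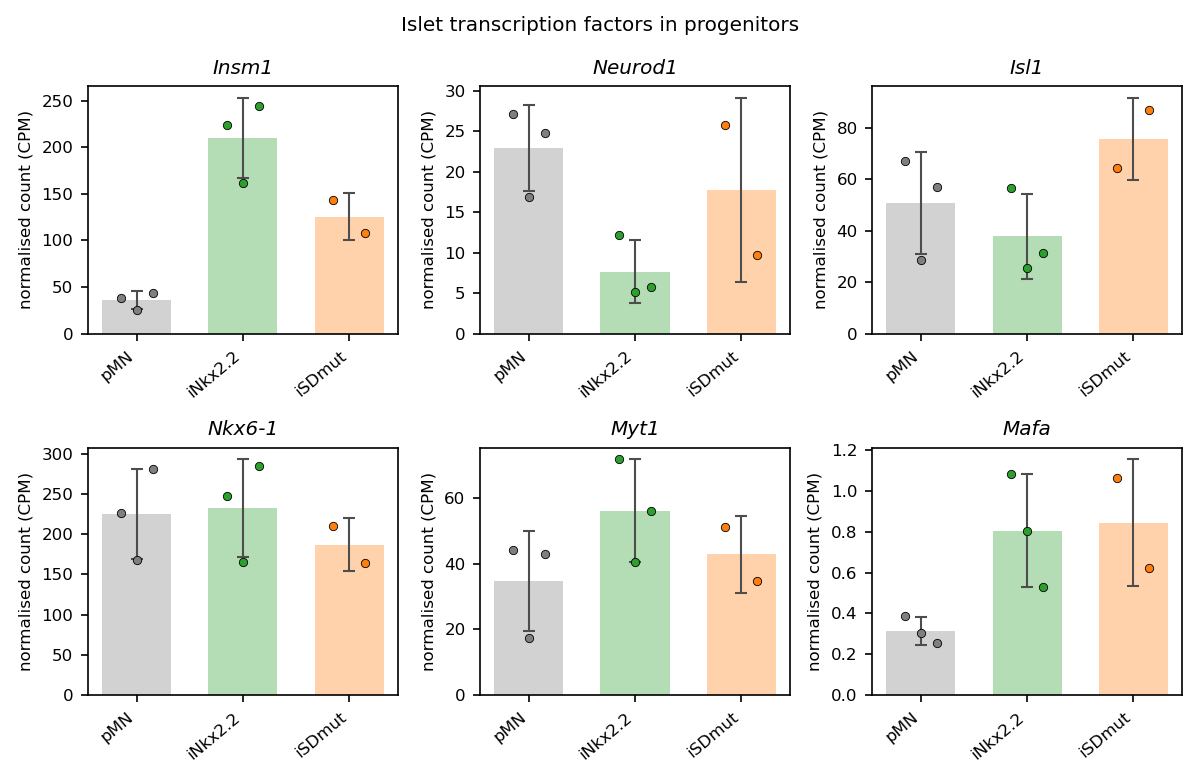
Normalised count (vertical axis, CPM) of 6 of the 8 factors in motor neuron progenitors without induction (pMN, n = 3) and with induced wildtype (iNkx2.2, n = 3) or mutated (iSDmut, n = 2) Nkx2.2; points are libraries, bars means and error bars SD. Insm1 lies between 162 and 245 CPM in iNkx2.2 cells and between 24.9 and 43.8 CPM in pMN, and Neurod1 is lowest in iNkx2.2 cells.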

How the data were processed

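The RNA tables hold counts of reads for each gene that the authors deposited unscaled, and the FPKM tables for islets and progenitors were also deposited by the authors. STAR, Cufflinks, DESeq2, edgeR 3.20.9, limma 3.34.9 and mm10 are named per the submitters' processing notes. The counting rule and strand are not given in the sources used here, so overlapping or antisense genes are uncertain. The authors deposited log2 fold changes and p-values (for E15.5 with a standard error and mean level, taken as scores and not used), counts in 500 bp at binding events called with GEM, and log2 CPM of final sites, whose sorted values differ by at most 0.0338 between replicates.

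Tests on the counts used edgeR 4.0.16 under R 4.3.3 (TMM, filterByExpr, robust quasi-likelihood fit, Benjamini-Hochberg at 0.05). A standard error is the size of a log2 fold change over the root of its F statistic. Each tissue comparison used its own libraries; the 9 islet libraries were fitted together for the difference of islet effects, and the 8 progenitor libraries for the progenitors. DESeq2 1.42.0, other normalizations, filters, blocks and fits without 1 library were alternatives. Fits and motif search were tested on simulated data. Windows were read from GRCm38 with positions taken as counted from 1, which could be off by 1 base; a window touching an untranslated region was not printed.

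The 8 members, the lists and the naming rule (every member; list genes with adjusted p under 0.05; the 3 genes most like each member called in islets, at an average log2 CPM of at least 2; every joined site) were chosen with earlier results of these data known. CATCTG and the block fit of only 2 progenitor groups were added after seeing the data. Deviations of same-numbered pMN and iNkx2.2 libraries from their group means correlated at 0.535, 0.513 and 0.568, so their numbers, which come from the titles, count as pairs. Replicate 3 of each ran on lane 4, and iSDmut 2 was the only progenitor library on lane 3. Some genes of the lists that passed the naming rule are not reported here.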

Additional observations from a re-analysis of the deposited data

Results flagged for a closer look

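Mafa in E15.5 SDmut replicate 2 stood apart from the other 3 mutants at 6.44 CPM, against 1.32, 2.01 and 1.79 CPM. Its gap to the nearest mutant was 0.865 of the range of the group, above Dixon's limit of 0.829 for 4 samples. Of 8 members tested in that group 1 was found, and chance alone marks about 1 in 20 groups. The library also had 1287 CPM of Acta1, a muscle transcript, and 8.33 CPM of Ins2, the lowest of the 4 mutants. Whether the muscle transcripts bear on Mafa was not tested. Without replicate 2 the log2 fold change of Mafa was -2.88 (SE 0.320, edgeR adjusted p 0.189).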

How the results depend on the processing

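At E15.5 every alternative called 0 members, and over all genes they called 0 to 25 against 1. At 8 weeks (3 members called) DESeq2 called 5, fits without 1 library 0 to 5, the fit of all 9 islet libraries 2 and the replicate block 3, with Mafa in place of Insm1; over all genes 37 to 2765 were called against 1224. At 4 weeks (0) DESeq2 called 3, the fit of all 9 libraries 2, the replicate block 1 and fits without 1 library 0; over all genes 4 to 770 against 233. For the difference of islet effects every alternative called 0 members, and 0 to 653 genes against 194. For iNkx2.2 against pMN (2) total library size called 1, no filter 1, lane 2 alone 1, the replicate block 4, the replicate block with only these groups 3 and fits without 1 library 1 to 2 (412 to 6885 genes against 1486). For iSDmut against pMN (1) fits without 1 library called 1 to 2, with Rfx6 added without iSDmut 2 (171 to 2626 genes against 554), and against iNkx2.2 (0) the replicate block called 2 (1 to 528 genes against 44). The cause of these shifts was not tested. Fits without 1 library have fewer samples, and in islets some of them leave a group with 1 library and no spread of its own. Titles of E15.5 libraries share numbers across genotypes, whose meaning the labels do not give. Same-numbered libraries correlated at -0.593 to 0.0118 and are not taken as pairs. Control 3 and SDmut 2, both with muscle transcripts, correlated at 0.525 under unlike numbers. Correlations that also follow such content cannot decide whether these E15.5 numbers pair. The replicate block by that number called 0 members and moved Pdx1 from -0.07 to -0.28 and Nkx6-1 from -0.24 to -0.38. The numbers are not taken as pairs for the islet libraries (correlations of -0.121 to -0.0626) or the iSDmut libraries (0.0503 to 0.343). In a group of 2 libraries the deviations from the mean mirror each other, so these correlations cannot decide whether the numbers pair. GEM events within 50 kb in place of joined sites gave 13 sites against 7, and final sites within 50 kb 8.

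Of the members' log2 fold changes under alternatives, 33 changed sign, all of them values that were not called. With total library size these were Myt1 at 4 weeks (-0.064) and, for the difference of islet effects, Neurod1 (0.11), Insm1 (0.085) and Rfx6 (0.053); the replicate block gave 0.012 for Neurod1 there. Mafa in iSDmut against iNkx2.2 was -0.010 with total library size, -0.00152 with no filter and -0.14 with the replicate block. Without 1 library, signs changed for Pdx1 at E15.5 (-0.25 to 0.077), Myt1 at 8 weeks (-0.029 to 0.11) and 4 weeks (-0.078 to 0.13), and in the difference of islet effects for Nkx6-1 (-0.016 to 0.57), Mafa (-0.48 to 0.40), Neurod1 (-0.13 to 0.014), Insm1 (-0.29 to 0.15), Rfx6 (-0.25 to 0.018) and Myt1 (-0.079 to 0.13). They also changed for Nkx6-1 in iNkx2.2 against pMN (-0.13 to 0.25), Neurod1 (-1.24 to 0.17) and Myt1 (-0.027 to 0.55) in iSDmut against pMN, and Mafa in iSDmut against iNkx2.2 (-0.39 to 0.37). The other 700 values kept their direction and side of the threshold, 18 passed it and 18 lost it. Pdx1 in progenitors had no value. Low counts limit Mafa, Rfx6 and Pdx1 in progenitors.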

Other observations

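The ratio of Isl1 to Nkx6-1 counts within a library needs no scaling between libraries, and was looked at after both values had been seen. It was 0.512 and 0.481 in 8-week controls and 1.70, 1.81 and 2.02 in betaSDmut islets. At 4 weeks it was 0.469 and 0.672 in controls and 1.88 and 2.10 in the libraries labelled betaKO. In E15.5 pancreas it was 0.278, 0.370 and 0.212 in controls and 0.480, 0.475, 0.465 and 0.364 in SDmut, where the lowest mutant and the highest control overlap. On the FPKM scale the ratio was 0.355 and 0.376 in 8-week controls and 1.27 to 1.503 in betaSDmut islets, so that the order of the 2 genes per length also differed.

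Genes at neighbouring steps of the same program at E15.5, named after their values were seen, were not called. Neurog3, the endocrine determinant, had 77.3, 60.0 and 55.0 CPM in controls and 45.6, 42.4, 71.1 and 70.1 CPM in mutants (log2 fold change -0.16, SE 0.224). Ghrl, the ghrelin gene, had 45.3, 21.9 and 18.0 CPM in controls and 73.3, 47.9, 104 and 61.7 CPM in mutants, without overlap (1.34, SE 0.386, edgeR adjusted p 0.9998, unadjusted 0.00951).

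Of 2415 joined genes matched to the annotation, the joined site was the nearest final site for 72.9%, lay within 50 kb of the start for 1595 of them and more than 100 kb away for 18.7%, with a median distance of 27917 bp. For the 7 joined members the nearest site was joined for 4.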
